A study of Mus musculus with 16 samples.

Results

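Dlx1, Dlx2, Dlx5 and Dlx6 were followed across 16 mouse oligonucleotide arrays. Each gene had 1 spot bearing its name among the 24109 gene probes of the array, so that the 4 genes were measured by 4 probes: 276267 for Dlx1, 272000 for Dlx2, 309287 for Dlx5 and 190306 for Dlx6. The study set a reverse transcription reaction inside a microfluidic rotary mixer beside the same reaction in a tube, and then applied the mixer to single embryonic neurons. The control group held 3 arrays of 15 µg unamplified total RNA from adult female B6.C3Sn forebrain, wild type, labelled by random-hexamer reverse transcription with Cy5-dUTP. The microfluidic group (3 arrays) and the conventional group (3 arrays) started from 10 pg of total RNA of the same strain, sex, age and tissue, reverse-transcribed for 20 min in a 7 nL mixer or in a 10 µL tube and amplified over 40 PCR cycles. The single cells (4 arrays) were dissociated OF1 neurons of embryonic day 14 from the caudal ganglionic eminence (CGE), each processed in the mixer with 25 min of reverse transcription, 40 cycles and Klenow labelling of the double-stranded product. The explant group (3 arrays) was 5 µg of unamplified wild-type OF1 RNA of embryonic day 14, coupled to Cy5 through aminoallyl-dUTP; its tissue label is CGE, whereas its extraction text names telencephalon. Control and explant therefore differ in age, strain, RNA amount and labelling route together, and no label names the animal of a cell or of a replicate. The extraction text of the 9 adult arrays speaks of a forebrain in the singular. p-values measure the spread between these arrays, which may be technical.

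Dlx genes encode homeodomain transcription factors that lie in the genome as convergently transcribed pairs, Dlx1 beside Dlx2 and Dlx5 beside Dlx6, each pair sharing enhancers between its members. In the embryonic mouse forebrain they mark the subpallium, which includes the ganglionic eminences, and are required for the differentiation and migration of GABAergic interneurons. Dlx1 and Dlx2 act from the progenitor stage onward, and Dlx5 and Dlx6 follow in differentiating cells, partly under their control. In the RefSeq table of GRCm38.p6 the first pair lies on chromosome 2 and the second on chromosome 6.

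The RefSeq table used here gave a promoter window, 250 bases before to 50 after the gene start, for 2 of the 4 genes. Those of Dlx1 and Dlx2, a convergent pair that is compared gene by gene below, are shown on their own strands. Capitals mark CANNTG, the E-box bound by basic helix-loop-helix factors, which reads as CANNTG on both strands.
Dlx1, GRCm38.p6 chr2:71529195-71529494, plus strand: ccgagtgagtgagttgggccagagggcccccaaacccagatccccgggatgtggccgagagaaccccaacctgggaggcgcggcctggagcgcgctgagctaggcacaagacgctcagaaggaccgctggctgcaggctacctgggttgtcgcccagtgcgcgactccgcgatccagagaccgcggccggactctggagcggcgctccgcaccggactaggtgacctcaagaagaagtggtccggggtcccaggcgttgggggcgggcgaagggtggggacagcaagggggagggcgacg
Dlx2, GRCm38.p6 chr2:71546705-71547004, minus strand: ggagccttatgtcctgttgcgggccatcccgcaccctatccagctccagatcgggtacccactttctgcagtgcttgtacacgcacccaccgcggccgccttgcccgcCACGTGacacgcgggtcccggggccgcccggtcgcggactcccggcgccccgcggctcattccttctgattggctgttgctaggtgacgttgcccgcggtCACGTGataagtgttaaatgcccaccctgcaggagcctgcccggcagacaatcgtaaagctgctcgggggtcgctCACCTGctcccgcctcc
The Dlx2 window held 3 matches and the Dlx1 window 0, where 72.3% of 32851 mouse promoter windows held at least 1. The homeodomain core TAATT, searched on both strands, was in neither window and in 27.0% of all windows. TATAAA, searched likewise, was in neither and in 13.6% of all. Both windows were rich in CpG, with 27 for Dlx1 and 29 for Dlx2 against a median of 7. A match is a string of letters here, and nothing about binding follows from its presence or absence.

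All signals of the microfluidic, conventional and single-cell arrays passed through the oligonucleotides below, which is why they are shown. Capitals mark the bases shared by all of them, which the PCR primer anneals to.
Template-switching oligonucleotide: AAGCAGTGGTATCAACGCAGAGTacgcggg
PCR primer: AAGCAGTGGTATCAACGCAGAGT
The cDNA synthesis primer carries the same 23 bases before a run of 30 T, so it starts at poly(A) tails, whereas control and explant RNA was primed at random positions. The cells' product was labelled on both strands, so the Dlx6 probe and the probes for transcripts antisense to Dlx6 cannot be told apart by strand where those transcripts overlap.

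Net intensity is the foreground median of a spot minus its local background median, in scanner units, and a spot at the scanner's ceiling is called saturated. A probe was called detected where its net intensity exceeded 2 SD of its local background. Over all gene probes, 64.7% to 69.3% were detected on the control arrays, 37.9% to 54.0% on the microfluidic, 3.25% to 5.76% on the conventional, 26.5% to 52.5% in the cells and 14.8% to 29.0% on the explant arrays. The median net intensity was 3514 to 4434 on the control arrays and 208 to 1156 on the explants, the 208 belonging to explant 2, so net intensities of these groups are on different footings. For this reason the percentile of a probe among all gene probes of its array and a quantile-normalized log2 intensity are given beside it. In the files with a header, each scanning session held arrays of 1 group only. The image names given there began with other characters for the explants than for the remaining groups. Group and batch cannot be told apart there, and the conventional files give neither. Of 4 CGE markers, 2 to 3 were detected per explant and 3 on every control array, so that this count did not set the groups apart, while their median percentile was 87.7 to 96.6 on the explants and 42.8 to 60.1 on the controls. Of 6 oligodendrocyte markers, 0 were detected on any explant and 6 on every control array. Markers of the pallium, the neighbouring territory, were detected too, 2 to 4 of 8 per explant and 4 to 5 per control array.

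**Figure D1:**
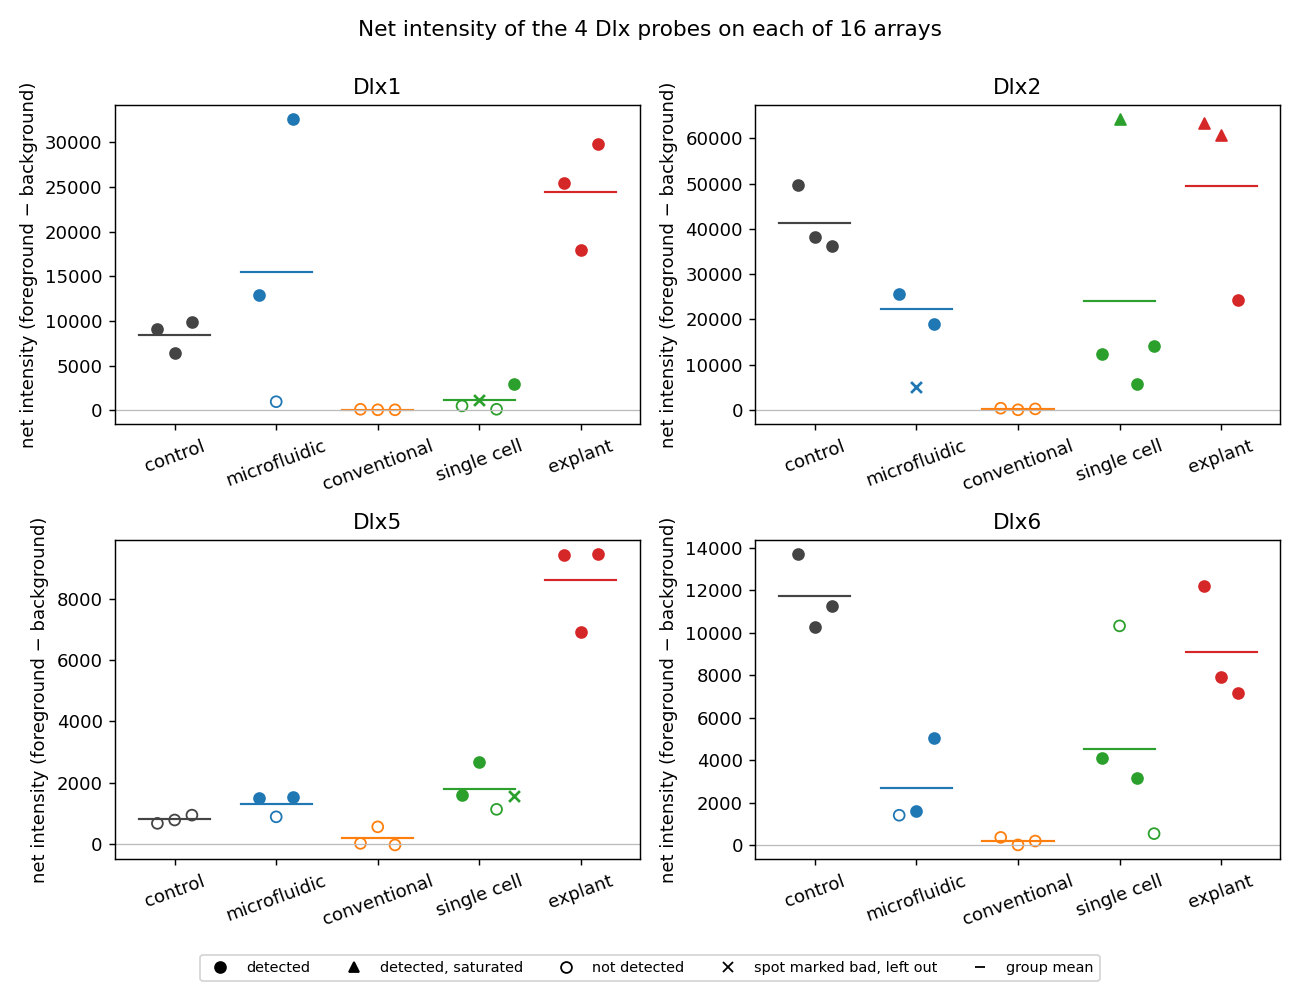
Net intensity (y axis, scanner units, linear) of each Dlx probe on the 16 arrays in 5 groups (x axis); filled symbols are detected, open circles not detected, triangles saturated, crosses left out as bad spots, and bars are group means without the crosses. The group means of Dlx1 and Dlx5 are highest on the explants, microfluidic 3 at 32568 being the highest single Dlx1 value, and the conventional arrays lie near 0 for all 4 probes.

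Dlx1, which acts early in subpallial progenitors, had net intensities of 9118, 6419 and 9899 on control arrays 1 to 3. On the explants it gave 25443, 18001 and 29794. All 3 explants were above all 3 controls, and Dlx1 stood at the 97.7th to 98.9th percentile of the explant arrays against the 67.3rd to 77.9th of the controls. On the microfluidic arrays it gave 12920, 982 and 32568, of which the 982 of replicate 2 was not detected. Replicates of the same input thus spanned both sides of the control level. The conventional arrays gave 135, 77 and 77, none detected. Its cells are described below.

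Dlx2, the partner of Dlx1, gave 49776, 38174 and 36228 on the control arrays, at the 95.4th to 96.0th percentile. The explants gave 63282, 60781 and 24307, at the 98.7th to 99.6th percentile, and the first and second of these were saturated, so that their levels are lower limits. The spot of explant 2 is also marked bad in the file and was kept because it was saturated. In net intensity the explants enclosed the controls, while in percentile all 3 explants were above all 3. The microfluidic arrays gave 25710 and 18994 for replicates 1 and 3, both below the controls, and replicate 2, with 5172, was a bad spot left out. The conventional arrays gave 383, 28 and 229.

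Dlx5, a gene of differentiating subpallial cells, had net intensities of 672, 782 and 941 on the control arrays. None of these was detected at 2 background SD, although each exceeded 198, the highest of the 3 controls' 95th percentiles of blank spots. The explants gave 9452, 6919 and 9461, all detected and all above every control. The pattern of Dlx5, detected on all explants and on no control array, was shared by 0.398% of the 24109 probes. Microfluidic arrays gave 1506, 886 and 1544, with replicate 2 not detected, and conventional arrays 18, 558 and -32, with none detected.

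Dlx6, the partner of Dlx5, gave 13681, 10254 and 11255 on the control arrays. All 3 were detected, as on every control array for Dlx1 and Dlx2 and for 58.1% of all probes. The explants gave 12194, 7924 and 7140, all detected. All 4 Dlx genes were thus detected on each explant, where 13.2% of probes were. In net intensity the explants and controls overlapped and the control mean was the higher (11730 ± 1760 against 9086 ± 2720; SD, n = 3 and 3), whereas in percentile the explants stood at 93.2 to 94.8 and the controls at 78.6 to 80.7. The microfluidic arrays gave 1408, 1594 and 5052, with replicate 1 not detected, all under the controls. The conventional arrays gave 366, 12 and 194, none detected.

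Ordered by mean percentile, the explants came first for all 4 genes, without overlap with the next group. By net intensity they came first for 3 of the 4, Dlx6 being the exception, and only for Dlx5 was there no overlap. For Dlx1 the microfluidic, control, single-cell and conventional groups followed, each overlapping the next in percentile. For Dlx2 control, microfluidic, single cells and conventional followed, and among neighbours in this order only microfluidic and single cells overlapped. The single cells, at 83.1 to 96.8, also overlapped the controls, at 95.4 to 96.0. For Dlx5 the order was single cells, microfluidic, conventional and control, with overlap of the first pair, of microfluidic with conventional and of conventional with control. For Dlx6 it was control, single cells, microfluidic and conventional, and each of these overlapped the next.

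The explants were set against the controls to compare embryonic with adult tissue without amplification. All 4 Dlx probes were higher in the explants in limma fitted across 14099 probes, of which 15.3% were called higher and 42.0% called in either direction. Dlx5 differed most, by 5.02 ± 0.27 on the log2 scale (SE, n = 3 and 3; adjusted p = 2.96e-05), and was at least 19.2-fold higher once its undetected control level was put at the detection limit. Dlx1 was higher by 3.52 ± 0.27 (adjusted p = 1.16e-04). Dlx6 was higher by 1.78 ± 0.23 (adjusted p = 9.86e-04) and Dlx2, saturated on 2 of 3 explants, by 1.22 ± 0.24 (adjusted p = 0.00646). None of the 4 probes had overlapping groups on this scale, as was the case for 57.9% of all tested probes, whose median difference was -0.30. These are differences relative to the rest of each array: without any scaling between arrays the median of all probes was -1.73, Dlx5 and Dlx1 were still higher (3.25 and 1.54), Dlx2 differed by 0.16 (adjusted p = 0.72) and Dlx6 turned to -0.29 (adjusted p = 0.358). With the spread taken from all 16 arrays, Dlx2 (adjusted p = 0.21) and Dlx6 (adjusted p = 0.0535) were no longer called. In bulk RNA, fewer cells of a type and less RNA per cell cannot be told apart.

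**Figure D2:**
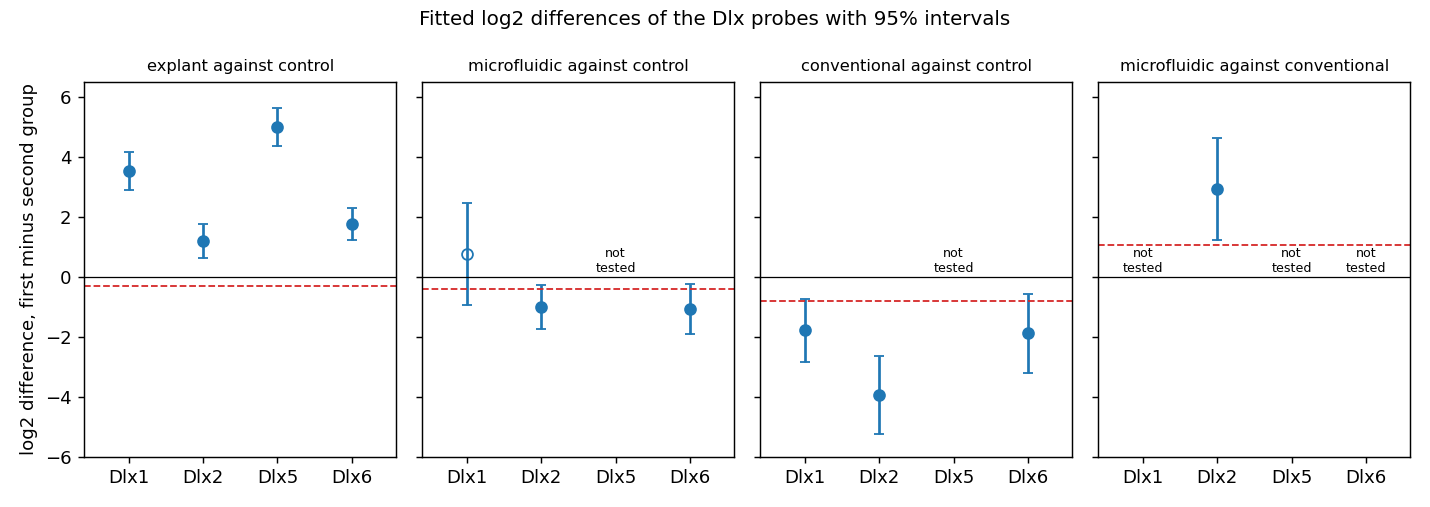
Fitted log2 differences (y axis, first minus second group) of the Dlx probes in 4 comparisons, with 95% confidence intervals; filled points have an adjusted p under 0.05, the dashed line is the median of all tested probes. All 4 members lie above 0 in the explants, from 1.22 for Dlx2 to 5.02 for Dlx5.

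Genes around the Dlx factors were read in the same comparison. Of 9 listed upstream or partner factors, 5 were tested, 2 were higher and 0 lower. Gsx1, a ganglionic eminence homeobox gene, was higher by 1.69 ± 0.22 (SE, n = 3 and 3; adjusted p = 9.73e-04) and Nkx2-1, which defines the medial eminence, by 1.31 ± 0.31 (adjusted p = 0.0135). Without scaling both turned below 0 (-0.07 and -0.19) and neither was called. The list median was 1.31 against -0.30 for all probes. With the spread common to all arrays, Nkx2-1 (adjusted p = 0.298) was not called.

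Of 34 Dlx-dependent and interneuron genes, 22 were tested, 4 were higher and 6 lower, with a median of 0.53, beside 15.3% higher and 26.7% lower among all tested probes. The counts were 2 higher and 8 lower with the deposited values, and 1 and 15 without scaling. Nr2f2, the orphan nuclear receptor that marks the CGE, was higher by 4.26 ± 0.27 (SE, n = 3 and 3; adjusted p = 5.28e-05). The lower genes with the smallest p are expressed in mature interneurons or, for Reln, in Cajal-Retzius cells and interneurons. Sst, the somatostatin gene, was at least 4.41-fold lower (adjusted p = 8.21e-04), being saturated on every control array. Calb2, encoding calretinin, was at least 2.12-fold lower (adjusted p = 8.38e-04) and Reln, encoding reelin, at least 1.87-fold lower (adjusted p = 0.00268); neither was detected on any explant. Gad2, a GABA-synthesis gene, had 2 probes that disagreed: 1.31 (adjusted p = 0.075) for the brighter, and -2.11 (adjusted p = 0.0446) for the dimmer, which was measured on 1 explant only and not detected there. With the spread common to all arrays, Sst (adjusted p = 0.0721) and Calb2 (adjusted p = 0.188) were not called, while Nr2f2 and Reln were.

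Of 16 pallial counterparts, genes of the excitatory lineage, 9 were tested, 2 were higher and 4 lower, with a median of -1.03. With median centring or the deposited values 0 were higher and 5 lower, and without scaling 0 and 7. Slc17a6, a vesicular glutamate transporter gene, was at least 1.49-fold lower (adjusted p = 0.00626; 2 explant and 3 control arrays). With the common spread it was not called (adjusted p = 0.212). Bcl11b, which is also expressed in striatal neurons, was higher by 1.77 ± 0.45 (adjusted p = 0.0163) and Tbr1, a factor of pallial neurons, by 1.09 ± 0.33 (adjusted p = 0.032; SE, n = 3 and 3). The calls of Bcl11b and Tbr1 did not hold with median centring (1.02 and 0.605) or the common spread and turned below 0 without scaling (-0.27 and -0.68). Leaving out control 1 or control 3 ended the call of Bcl11b (1.68 and 1.40), and leaving out control 1, control 2, explant 1 or explant 2 that of Tbr1 (0.85 to 1.13). Markers of mature glia moved in this comparison as well: 6 of 6 oligodendrocyte genes were lower (median -4.09), with a summed net intensity of 3480 to 16498 on the explants and 198296 to 232376 on the controls. Of astrocyte genes 3 of 5 were lower and 0 higher. Of young-neuron markers 4 of 4 and of progenitor markers 3 of 5 were higher. The part of these cell types in the Dlx differences was not tested.

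Metap1d, which neighbours the Dlx1 and Dlx2 pair on chromosome 2, was the neighbouring gene with a probe. It was higher in the explants by 1.00 ± 0.31 (SE, n = 3 and 3; adjusted p = 0.0334) and the groups did not overlap. It was detected on 1 of 3 explants, fell to -0.61 without scaling, and lost its call when any one of the arrays but explant 3 was left out (0.79 to 1.09).

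**Figure D3:**
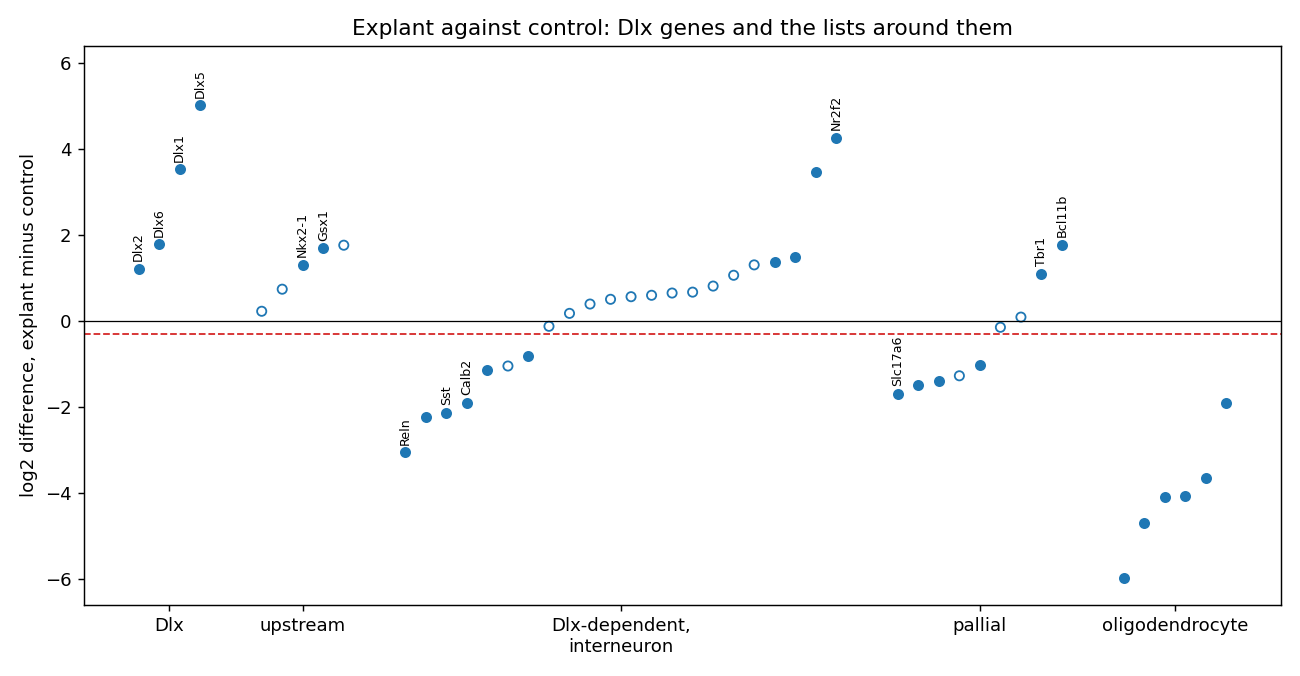
Log2 differences of explant minus control (y axis) for the 4 Dlx probes and the tested members of 4 gene lists, 1 point per gene ordered by size within its list (x axis); filled points have an adjusted p under 0.05, those described in the text are named, and the dashed line is the median of all probes (-0.30). Nr2f2 lies at 4.26 between Dlx1 and Dlx5, and the 6 oligodendrocyte genes lie below 0.

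Mixer reactions of 10 pg adult RNA were set against the unamplified control to see what the amplified signal kept. Of the 3 Dlx probes that entered the test, Dlx2 and Dlx6 were called lower, beside 34.8% of 15770 probes called lower and 59.1% called in either direction. Dlx2 fell by 1.00 ± 0.30 on the log2 scale (SE; adjusted p = 0.0274; 2 and 3 arrays, limma). Dlx6 fell by 1.07 ± 0.35 (SE, n = 3 and 3; adjusted p = 0.0322). The median difference of all tested probes was -0.41, and the groups did not overlap for these 2 probes or for 68.9% of all. Both calls were fragile. With median centring Dlx2 turned to 0.25 (adjusted p = 0.569) and Dlx6 gave -0.88 (adjusted p = 0.11). Leaving out 1 array ended the Dlx2 call for control 1, 2 or 3 and for microfluidic 3, and the Dlx6 call for control 1, 2 or 3 and microfluidic 1 or 2 (adjusted p up to 0.105 and 0.0911).

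Dlx1 differed by 0.78 ± 0.73 (SE, n = 3 and 3; 95% interval of ± 1.71; adjusted p = 0.386) and was not called. Its 3 mixer values spanned 3.09 on the log2 scale, a range larger than that of 95.6% of probes, whose median range was 0.94. Without microfluidic replicate 2, the undetected spot, the difference was 1.65 (adjusted p = 0.0127). Dlx5 did not enter the test because 2 of 3 mixer arrays and 0 of 3 controls detected it. Its control level did not exceed 2 background SD, so no fold is given. Fitted by limma without the detection filter, Dlx5 was higher by 1.63 (SE 0.265, adjusted p = 0.00192), the other direction from Dlx2 and Dlx6. That difference rests on a control level that was not detected.

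In this comparison 24.3% of all tested probes were called higher and 34.8% lower. The upstream list had 1 higher and 3 lower of 6 tested. Gsx2, an eminence factor, was at least 3.23-fold higher (adjusted p = 3.29e-04) and was detected on no control array. Otx2, a forebrain homeobox gene, fell by 3.43 (adjusted p = 0.00158). Nkx2-1 was at least 1.06-fold lower (adjusted p = 0.0491), a call that ended without control 1, 2 or 3 or microfluidic 2 or 3 (adjusted p up to 0.137). Among Dlx-dependent and interneuron genes 4 were higher and 11 lower of 24 tested. Isl1, a striatal factor, was at least 3.43-fold higher (adjusted p = 3.27e-04) and Cxcr4, a chemokine receptor of migrating interneurons, rose by 2.64 (adjusted p = 4.07e-04), whereas Sst was at least 6.23-fold lower (adjusted p = 3.55e-04). Lhx6, a factor of medial eminence interneurons, was at least 1.90-fold lower (adjusted p = 7.72e-04). Among pallial counterparts 5 were higher and 3 lower of 11. Slc17a7, a vesicular glutamate transporter gene, rose by 2.25 (adjusted p = 8.13e-04). Emx1, a cortical homeobox gene, fell by 3.74 (adjusted p = 0.00343; 2 mixer and 3 control arrays). Neurod6, a gene of excitatory neurons, was at least 2.92-fold lower (adjusted p = 0.0044). Eomes, a gene of cortical intermediate progenitors, rose by 1.86 (adjusted p = 0.0202), a call that ended without control 1 or 2 or microfluidic 2 or 3 (1.49 to 1.73). Each list thus held called genes in both directions. With median centring 8 interneuron genes were higher and 10 lower, and without scaling 1 pallial gene was higher and 4 lower.

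In tubes, no conventional array detected any Dlx probe, a state shared by 87.3% of the probes that all 3 controls detected. The 3 tested members were called lower against control, beside 23.7% of 14032 probes called lower, 6.31% higher and 30.0% in either direction. Their groups did not overlap, nor did those of 50.0% of all tested probes. Dlx2 was at least 1.08-fold lower (fitted -3.94 ± 0.57; SE, n = 3 and 3; adjusted p = 0.00257). Dlx1 (adjusted p = 0.0226) and Dlx6 (adjusted p = 0.0411) have no fold: on the normalized scale their control level lay below the tubes' detection limit. In scanner units the control values (6419 to 9899 for Dlx1, 10254 to 13681 for Dlx6) exceeded 2 background SD of the tube spots. Leaving out any one control array ended the calls of Dlx1 and Dlx6 (adjusted p up to 0.116 and 0.143), and for Dlx6 leaving out conventional 3 did as well. Against the tubes, the mixer arrays were higher for Dlx2, the member that could be tested, by a fitted 2.94 ± 0.74 (SE; adjusted p = 0.0245; 2 and 3 arrays, limma), beside 22.4% of 7362 probes called higher and 4.36% lower. The groups did not overlap for Dlx2 or for 49.1% of all tested probes. Again no fold is given, since on the normalized scale the mixer level lay below the tubes' detection limit. In scanner units the mixer values, 25710 and 18994, exceeded 2 background SD of the tube spots. Without microfluidic replicate 2, the array whose Dlx2 spot was left out, this adjusted p was 0.0626. Both amplified groups share their controls, so their differences from control are not independent of each other.

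Around the Dlx genes the tube arrays had 2 of 5 upstream genes lower and 0 higher against control, 8 of 22 Dlx-dependent and interneuron genes lower and 0 higher, and 0 of 9 pallial genes lower and 1 higher. These counts depended on the scaling. With the deposited values 3 upstream genes were lower and 2 higher, 11 interneuron genes lower and 1 higher, and 3 pallial genes lower and 0 higher, and without scaling all 5, 22 and 9 tested genes were lower. The median of all tested probes was -0.81.

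The 4 cells were described without a test, since no label gives their animals. Dlx2 was detected in 4 of 4 cells, with net intensities of 12316, 64223 (saturated), 5833 and 14226 in cells 1 to 4. It stood at the 85.0th, 96.8th, 83.1st and 94.4th percentile, where the 96.8 of the saturated spot in cell 2 is a lower limit. Cells 1, 3 and 4 were below every explant, and the place of cell 2 cannot be told. Detection in all 4 cells was found for 17.1% of all probes and for 31.8% of the 3183 probes detected on every explant. Dlx1 was detected in cell 4 only, with 2926, while cells 1 and 3 gave 513 and 136 and the spot of cell 2 was bad. Cell 4 was the cell with the fewest probes detected (26.5%). It was also scanned in another session than cells 1 to 3, so this cell and its session cannot be told apart.

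Dlx5 was detected in cells 1 and 2 (1614 and 2672) and not in cell 3 (1130), and the spot of cell 4 was bad. Its log2 intensity in the 3 measured cells, 10.50, 10.83 and 10.62, lay close to that of the adult RNA in the mixer, 10.42 to 10.53, and differed from the explant mean by -3.37 to -3.04. Dlx6 was detected in cells 1 and 3 (4088 and 3174). Cell 2 gave 10316 over a background SD of 6111 and cell 4 gave 543, so neither was called. The highest Dlx6 value among the cells was thus not a detection.

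Over the 16 spots of 4 genes in 4 cells, of which 2 were bad, 9 were detected. By cell the members detected were 3, 2, 2 and 2, beside 44.7%, 52.5%, 35.5% and 26.5% of all probes measured in cells 1 to 4. Dlx1 and Dlx5 were together detected in none of the cells, and the bad spots leave cells 2 and 4 without 1 of the pair. Among the probes that every explant detected, 14.7% were detected in exactly 1 cell, as Dlx1 was, and 11.3% in exactly 2, as Dlx5 and Dlx6 were. An undetected spot was not measurable at its background and does not show that the RNA was absent. The adult RNA in the mixer, amplified in the same way, detected Dlx2 on 2 of 2 measured arrays and each of the others on 2 of 3.

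**Figure D4:**
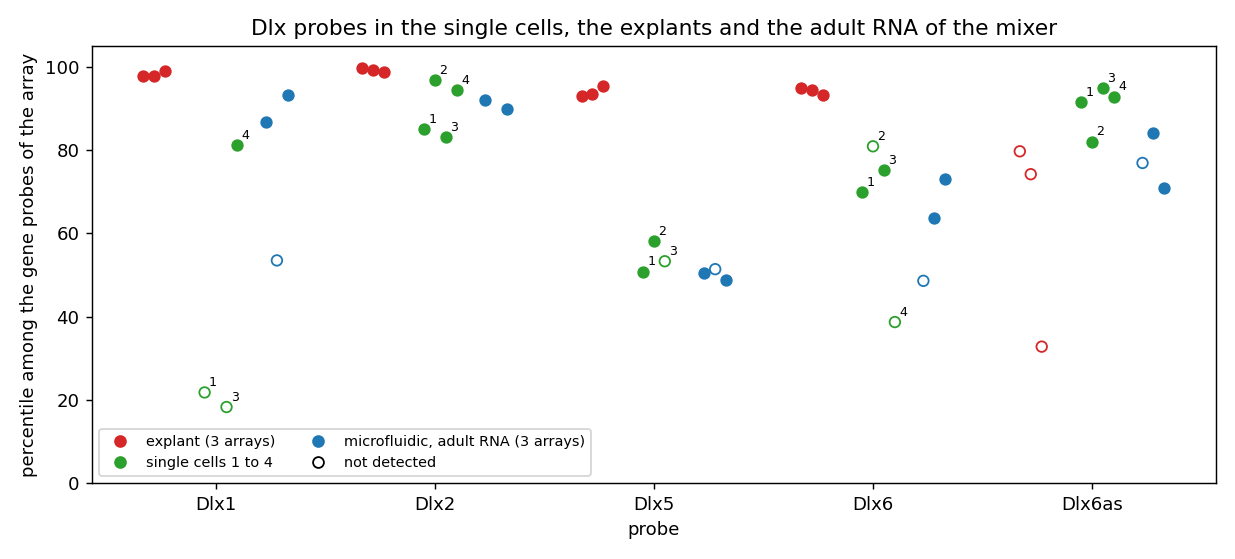
Percentile among the gene probes of the array (y axis) of the 4 Dlx probes and the antisense probe Dlx6as (x axis) on 3 explants, 4 cells (numbered) and 3 mixer arrays of adult RNA; open symbols were not detected, and left-out spots are missing. The measured cells lie below the explants for Dlx1, Dlx5 and Dlx6, as do cells 1, 3 and 4 for Dlx2, whose spot in cell 2 was saturated, and all 4 cells lie above the explants for Dlx6as. The share of all probes whose cells lie below the explants is not given here, so the lower order is not particular to Dlx.

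Markers in the cells are given beside these values. CGE markers were detected for 3, 4, 2 and 0 of 4 in cells 1 to 4. Nr2f2 was detected in cell 2 only, with a saturated 64418 against 577 or less in the others. Pallial markers were detected for 5, 5, 5 and 0 of 8, oligodendrocyte markers for 3, 2, 3 and 1 of 6 (summed net intensity 5631 to 106150), and astrocyte markers for 2, 3, 2 and 1 of 5. In cell 4, in which Dlx1 was detected, none of these CGE and pallial markers was detected, while 5 of the 16 pallial counterparts listed above were. The part of these other markers in the Dlx values was not tested. Among Dlx-dependent and interneuron genes, the highest minimum percentiles over the 4 cells were those of Erbb4, the neuregulin receptor of migrating interneurons (88.8), the kinase gene Pak3 (80.3) and Cxcr4 (78.9), each detected in 4 of 4. Of these, Erbb4 was below every explant and Cxcr4 above every explant. On the mixer arrays of adult RNA Erbb4 (93.3 to 95.5), Pak3 (81.9 to 89.7) and Cxcr4 (75.1 to 85.0) were each detected on 3 of 3. Their percentiles there overlapped those of the cells. Erbb4 is given here by its brighter probe. Its dimmer probe was detected on 0 of 3 mixer arrays, and the values of that probe in the cells are not given here. Among upstream genes, Gsx2 (66.9) was detected in 2 cells and Helt (22.2) in 0. Among pallial counterparts Neurog1 (96.3) and Slc17a7 (95.9) were detected in 4 of 4. Neurog1 was also detected on 3 of 3 explants and 3 of 3 mixer arrays of adult RNA (99.1 to 99.6). Slc17a7 was detected on 0 of 3 explants but on 3 of 3 mixer arrays of adult RNA, at the 93.1st to 95.7th percentile.

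Other Dlx probes were also on the array. Dlx3, known from skin and placenta, was detected in cells 2 and 4 (2082 and 1961) and on no other array. Dlx4 was detected on microfluidic array 1 and in cell 1, and its spots on microfluidic 3, conventional 1, cell 2 and cell 4 were bad. The probe that the files name Dlx6as, for a transcript antisense to Dlx6, was added to the lists after its values had been seen. It gave 26528, 11270, 27065 and 10202 in cells 1 to 4, detected in 4 of 4, and 3975, 1500 and 531 on the explants, with none detected. All 4 cells were above all 3 explants in percentile (82.0 to 94.9 against 32.8 to 79.7), as held for 16.6% of probes, and detection in 4 of 4 cells with none on the explants held for 8.32%. Against the mixer arrays of adult RNA, at 70.8 to 84.1, cell 2 overlapped. Dlx6os2, a further antisense probe, had the opposite order, with 2 of 3 explants and 0 of 4 cells detected.

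Likeness to each member was described by Pearson's r of log2 intensity over the 16 arrays, or over the 14 or 15 on which both spots were measured. The arrays share group, batch and detection rate, so r describes these arrays and carries no p. Among the members r was highest for Dlx2 with Dlx6 (0.808) and for Dlx1 with Dlx2 (0.791), and lowest for Dlx2 with Dlx5 (0.383); Dlx5 with Dlx6 gave 0.535. Of 14221 probes compared, those most like Dlx5 were Rrm2, a subunit gene of ribonucleotide reductase (0.966), Erh (0.954) and the ribosomal gene Rps27a (0.938). Those most like Dlx6 were Reep1 (0.960), the threonyl-tRNA synthetase gene Tars (0.949) and Klhl23 (0.948). For Dlx2 they were Zfp319 (0.937), Nsmce1 (0.933) and Ccdc88a (0.932), and for Dlx1 Hmgn2, a nucleosome-binding protein gene (0.903), the thrombin receptor gene F2r (0.897) and Gimap1 (0.894). By Spearman's rho 2 of the 3 named for Dlx5 were again among its top 3, 1 for Dlx6 and 0 for Dlx1 and Dlx2.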

How the data were processed

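Per the file headers, the deposited intensity files hold the raw foreground and local background of 25344 spots per array at 1 wavelength, read with Mapix versions 2.2.4 to 2.5.1. The conventional files carry no header. The deposited table of signal values, linear in scale, was scaled by the authors in a way not given in the sources used here; it served as an alternative. Deposited spot marks are on no measurement scale.

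The 4 members were found by the spot name. Other symbols came from the platform accession or, without one, from names matched to RefSeq (20894 probes with a symbol). Bad spots were left out unless saturated. Intensities were corrected by normexp (offset 50), taken to log2, averaged per probe and then quantile-normalized over 16 arrays (limma 3.58.1, R 4.3.3). Conventional 1 has no background SD, and the spot-wise mean of the other conventional arrays was used. limma (two-sided, eBayes) was fitted per pair of groups over probes detected on all measured arrays of at least 1 group, with Benjamini-Hochberg adjusted p under 0.05 over all tested probes. Each comparison took its own spread. The fit was tested on simulated data. Where a group was undetected or saturated throughout, "at least" puts an undetected probe at its own level or, if higher, at the dimmest detected probe of the array. "Higher" and "lower" of a test stand for probes that passed it. Where a gene had more than 1 probe, the brightest was taken. From each list up to 4 called members with the smallest p, and in cells up to 3 with the highest minimum percentile, may be named. The number of arrays limits the precision. Same-numbered replicates were not paired. Members and lists were chosen with earlier results of these data known, and the alternative without scaling was added after seeing the data. Results for some genes of the lists are not reported here.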

Additional observations from a re-analysis of the deposited data

Results flagged for a closer look

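The net intensity of Dlx2 in cell 2, 64223, stood far from the other 3 cells, at 5833 to 14226: its gap to the nearest was 0.856 of the whole range, above Dixon's 95% critical value for 4 samples. The spot was saturated. On the log2 scale the corresponding share was 0.299 and the cell did not stand apart. Dlx6, the other member measured in 4 cells, had shares of 0.637 and 0.65. Chance flags about 1 in 20 such groups. Cell 2 also had the largest share of probes detected (52.5%) and the saturated Nr2f2 spot.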

How the results depend on the processing

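For explant against control, Dlx1 and Dlx5 kept direction and call under 18 of 18 alternatives each (1.54 to 3.72 and 3.25 to 5.14). Dlx2 and Dlx6 did so under 16, and lost the call with a spread common to all arrays (1.22, adjusted p = 0.21, and 1.78, adjusted p = 0.0535) and without scaling between arrays (0.163, and -0.293 in the reverse direction). The count of called probes, 5928, became 1846 with the common spread and 11457 without scaling; higher calls made up 36.4%, against 26.3% with median centring and 2.78% without scaling.

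For microfluidic against control (9326 calls, 41.1% higher, against 30.4% with the deposited values and 21.7% without scaling), Dlx2 kept its call under 9 of 18 alternatives. It reversed with median centring (0.246) and was not called with the deposited values (-0.533), the common spread (-1), the replicate block (-1.01) or no scaling (-0.885). Dlx6 was lost with median centring (-0.879) and the common spread (-1.07). Dlx1, not called, reversed without scaling (-0.0838). Leaving out single arrays gave 0.106 to 1.65 for Dlx1, -1.18 to -0.822 for Dlx2 and -1.36 to -0.754 for Dlx6.

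For conventional against control, 4215 calls (21.0% higher) became 8276 with the deposited values (46.0%), 6962 with no filter, 13368 without scaling (0.576%) and 1878 to 6004 without single arrays. Dlx1 was lost with the deposited values (-0.385), the common spread and the replicate block (-1.78 in both), and Dlx6 with the block (-1.88); without single arrays they gave -1.93 to -1.59 and -2.32 to -1.38. For microfluidic against conventional, 1969 calls (83.7% higher) became 3721 with median centring (94.0%), 3166 with the common spread, 6628 without scaling (98%) and 578 to 2368 without single arrays; the deposited values gave 67.5%. Dlx2 was lost under the replicate block (2.44) and ranged from 2.44 to 3.34 without single arrays.

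Same-numbered arrays did not deviate together (r of deviations -0.198 to 0.0873), so the block rests on numbers alone. Of 412 repeats for named list genes, 364 kept the call, 43 lost it and 5 reversed without scaling, namely Gsx1 (-0.0733), Nkx2-1 (-0.192), Bcl11b (-0.269), Tbr1 (-0.68) and Metap1d (-0.611) in the explants. Nkx2-1 and Eomes in the mixer lost their calls under 11 of 17 and 6 of 18. The causes were not tested. The 9 detected spots in the cells became 11 at 1 SD, 8 at 3 SD and 13 with a limit from blank spots. The explants ranked first for 3 of 4 members by net intensity and for 4 by percentile, log2 intensity or the deposited values. Signal over background limits the conventional arrays most.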
